A study of Rattus norvegicus with 6 samples.

Results

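Matrix metalloproteinases (MMPs) were examined in primary rat chondrocytes with and without all-trans retinoic acid (RA). The genes, picked with earlier results of these data known, were matched by symbol: Mmp2, Mmp3, Mmp8, Mmp9, Mmp10, Mmp11, Mmp13, Mmp14, Mmp16 and Mmp23. Of these 10 genes, 9 had a row among the 18923 genes of the count tables, and Mmp8 was not analysed here. The CON group held 3 untreated samples and the RA group held 3 samples kept for 24 h in 1 µM RA. All 6 were polyadenylated RNA from wild-type cells, which per the study's methods came from the cartilage of newborn female Sprague-Dawley rats, were freed with type II collagenase and were used at early passage in medium with serum. The study's methods call the 3 samples of each group independent and describe biological replicates. Whether they came from separate animals is not stated there, so the p-values measure the spread between these samples.

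MMPs are zinc-dependent endopeptidases that cut the proteins of the extracellular matrix. Most are secreted as inactive proenzymes, are switched on by removal of a propeptide and are held in check by the tissue inhibitors of metalloproteinases (TIMPs), so a transcript level is not an enzyme activity. In cartilage, MMP13 is the main collagenase of type II collagen and is typical of hypertrophic chondrocytes at the growth plate, and MMP9 is known for the removal of cartilage matrix where vessels and bone-forming cells enter. Retinoic acid acts through nuclear receptors that bind DNA and change transcription.

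In the RefSeq gene order of the rat, 10 MMP genes lay side by side on chromosome 8, with 2 other entries among them, both pseudogenes. Mmp13, Mmp3, Mmp10 and Mmp8 belong to this cluster and Mmp2, Mmp9, Mmp11, Mmp14, Mmp16 and Mmp23 do not. RefSeq promoter sequence was at hand for 6 of the 10 genes (Mmp3, Mmp8, Mmp10, Mmp11, Mmp13 and Mmp23). In the 250 bases before the transcription start, 3 of these 6 promoters held the motif of the AP-1 transcription factor (TGANTCA, which reads alike on both strands), against 6.34% of all 33469 promoters of the same length. The 3 were Mmp13, Mmp3 and Mmp10, and each also held a TATAAA box, a pair of motifs found in 1.02% of all promoters. The same pair stood in the promoters of Mmp12, Mmp20 and Mmp7, further genes of the cluster that had 0 to 11 reads per sample and were not tested. The sequences of Mmp13, Mmp3 and Mmp10 are shown because genes encoding AP-1 subunits are described with the MMPs further on. They run 5′ to 3′ from base -120 to base -21 before the start on the plus strand of build GRCr8, with the AP-1 motif and the TATAAA box in capitals and the other bases in lower case.
Mmp13, chr8:12782709-12782808: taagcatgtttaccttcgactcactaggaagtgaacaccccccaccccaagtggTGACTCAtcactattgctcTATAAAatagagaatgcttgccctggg
Mmp3, chr8:12925161-12925260: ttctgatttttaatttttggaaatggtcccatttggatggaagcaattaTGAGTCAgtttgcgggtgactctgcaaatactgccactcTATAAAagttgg
Mmp10, chr8:12974587-12974686: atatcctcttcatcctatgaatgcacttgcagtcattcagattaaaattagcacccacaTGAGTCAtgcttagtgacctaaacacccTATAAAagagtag
The AP-1 motif began at base -66 in Mmp13, -71 in Mmp3 and -61 in Mmp10, and the nearest TATAAA box at -47, -32 and -33. The PEA3 (AGGAAG) and RUNX (ACCACA) motifs were searched too, on either strand, and were in 29.5% and 14.5% of all promoters. Among the 6 genes, Mmp13 held PEA3 at -95, unmarked in the printed stretch, and RUNX at -149. Mmp3 held PEA3 at -206 and Mmp8 held it at -246 (minus strand). The core element of retinoic acid receptors (AGGTCA, either strand) was in 14.1% of all promoters and, among the 6, in Mmp10 alone (-47, minus strand). Its direct repeat with a spacer of 5 bases was in 3 of the 33469. That repeat was not found in the windows of the 6 genes. Only this exact spelling and spacing was searched. A repeat this rare was unlikely to fall in 6 windows, so no conclusion is drawn from its absence. A match of letters is a description of the sequence and not a measured binding site.

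The libraries held 29370025 to 38007486 counted reads. CON 1 stood apart: its distance to the other CON samples (root mean square over log2 CPM, the counts scaled by library size) averaged 0.474, against 0.397 and 0.413 for CON 2 and CON 3 and 0.357 to 0.358 within the RA group. The averages of CON 2 and CON 3 include CON 1. Distances to the RA samples averaged 0.590 for CON 1, 0.482 for CON 2 and 0.485 for CON 3. CON 1 was thus nearly as far from the other CON samples as those were from the RA samples. Chondrocyte markers were present in every sample, with Col2a1, the main collagen of cartilage, at 3023 to 6135 FPKM (counts scaled by gene length and by the library's total count). Their levels differed between the groups: 8 of 9 chondrocyte markers were lower in RA as differentially expressed genes (DEGs, adjusted p below 0.05 and log2 fold change beyond 0.58), against 2.29% of all genes tested. In bulk RNA, fewer cells of a type and less RNA per cell cannot be told apart.

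After the filter for low counts, 8 of the 9 MMP genes with a row could be tested, and 3 of these 8 were DEGs (Mmp13, Mmp9 and Mmp3). All 3 rose in RA, while over all 13438 genes tested 4.96% were DEGs, 2.67% higher and 2.29% lower. By adjusted p alone the count was 3 too, all higher, against 9.82% of all genes, or 5.31% higher. The 8 genes had a median log2 fold change of 0.40, beside -0.0057 over all genes tested. In 6 of the 8 genes every RA sample lay above every CON sample, a pattern found in 18.9% of all genes tested. Leaving out CON 1 left 3 DEGs among the MMP genes.

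**Figure D1:**
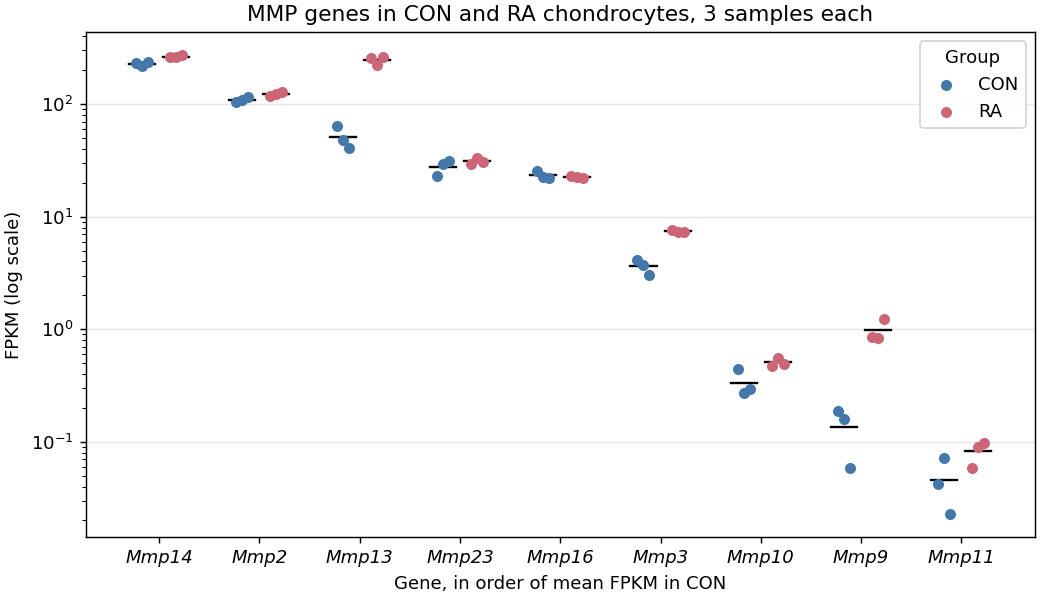
FPKM on a log axis of the 9 MMP genes with a row, ordered by their mean in CON, with 1 point per sample (3 CON, 3 RA) and a line at each group mean. Mmp13 moved from 40.9 to 64.3 FPKM in CON to 223 to 261 FPKM in RA, next to Mmp14 at 260 to 272 FPKM.

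The collagenase Mmp13 (ENSRNOG00000008478), which cuts fibrillar type II collagen, had the largest rise in FPKM among the MMP genes. Its FPKM was 64.3, 47.5 and 40.9 in CON 1, 2 and 3 and 256, 223 and 261 in RA 1, 2 and 3. The lowest RA sample was thus far above CON 1, the highest CON sample, and the groups did not overlap. The means were 50.9 ± 12.1 FPKM in CON and 246 ± 20.5 FPKM in RA (SD, n = 3 each), from counts of 3732 to 5140 and 17040 to 20998 reads. The log2 fold change was 2.26 (SE 0.153), a rise of 4.80-fold, with an adjusted p of 8.77e-05 in edgeR's quasi-likelihood test. Across the fits that omit 1 sample, the log2 fold change stayed between 2.14 and 2.46.

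The gelatinase Mmp9 (ENSRNOG00000017539), which digests denatured collagen and type IV collagen, had the largest fold change but a very low level. Its FPKM was 0.186, 0.158 and 0.0585 in CON and 0.845, 0.843 and 1.24 in RA. These values rest on 18, 15 and 7 reads in CON and 79, 78 and 121 reads in RA. The groups did not overlap, and the lowest value was that of CON 3. The log2 fold change was 2.88 (SE 0.380), or 7.34-fold, with an adjusted p of 0.00231 in edgeR. The cutoff of the filter, 0.329 CPM, was reached by 2 CON samples and all 3 RA samples. The size of the change depended on the scale, since limma gave 2.23 on log2(FPKM + 0.1) and 0.80 on log2(FPKM + 1). Neutrophils and osteoclasts are known sources of Mmp9. Of 6 neutrophil markers 3 had a row, all at 0 to 4 reads per sample, and their summed FPKM was 0.0154 to 0.0938 in CON and 0 to 0.0164 in RA, ranges that overlap. Of 10 macrophage and osteoclast markers 7 had a row and none of the 5 tested was a DEG in edgeR or DESeq2 (1 had an unadjusted p below 0.05), with sums of 43.0 to 47.5 FPKM in CON and 44.5 to 47.5 FPKM in RA. Ctsk (24.5 and 22.3 FPKM on average in CON and RA) and Cd14 (12.9 and 15.3 FPKM) made up most of these sums. Ctsk had the only negative log2 fold change of the 5 (-0.15), and the list median was 0.23. In Cd14 (0.23) and Cd68 (0.27) every RA sample lay above every CON sample, as in 18.9% of all genes tested. Ptprc, the leukocyte common antigen, did not exceed 0.0270 FPKM in any sample. Itgax, an integrin subunit of myeloid cells outside that list, picked with its values in view, was a DEG at 0.680 ± 0.129 FPKM in CON and 2.83 ± 0.433 FPKM in RA (log2 fold change 2.05, adjusted p = 2.37e-04 in edgeR). The part of such cells in the Mmp9 result was not tested. The other gelatinase, Mmp2 (ENSRNOG00000016695), was abundant, with 104, 108 and 115 FPKM in CON and 119, 123 and 129 FPKM in RA. The groups of Mmp2 did not overlap, but its log2 fold change of 0.17 (SE 0.0652) had an adjusted p of 0.158 in edgeR and did not pass.

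The stromelysin Mmp3 (ENSRNOG00000032626), which cuts proteoglycans and can activate other proMMPs, rose about as much in every RA sample. Its FPKM was 4.12, 3.75 and 3.03 in CON and 7.69, 7.28 and 7.28 in RA. The RA samples lay close together and above all CON samples. The log2 fold change was 1.02 (SE 0.129), or 2.03-fold, with an adjusted p of 0.00180 in edgeR, and it stayed between 0.91 and 1.12 with each sample left out. Its paralog Mmp10 (ENSRNOG00000032832), stromelysin 2, was at 0.440, 0.272 and 0.294 FPKM in CON and 0.475, 0.560 and 0.493 FPKM in RA. These levels were only 14 to 23 reads in CON and 24 to 28 reads in RA. The groups did not overlap, although CON 1 was close to RA 1, and the log2 fold change of 0.59 (SE 0.296) had an adjusted p of 0.270 in edgeR. Mmp3 and Mmp10 are close paralogs, and how reads shared by both were assigned is not given in the sources used here, so the split between them is uncertain.

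None of the 3 tested membrane-bound MMP genes was a DEG, by edgeR or by DESeq2, and 1 (Mmp14) had an unadjusted p below 0.05. Mmp14 (ENSRNOG00000010947) encodes MT1-MMP, a collagenase of the cell surface and an activator of proMMP2, and was the MMP gene of the highest level in each of the 6 samples. Its FPKM was 230, 218 and 235 in CON and 261, 260 and 272 in RA, with no overlap between the groups. The log2 fold change of 0.20 (SE 0.0565) had an adjusted p of 0.0602 in edgeR. The adjusted p was 0.0313 in DESeq2 and ran from 0.0132 without CON 1 to 0.260 without RA 3, and the fold threshold was not reached in any of these fits. Mmp16 (ENSRNOG00000005708), which encodes MT3-MMP, had 25.7, 22.7 and 21.9 FPKM in CON and 23.1, 22.5 and 21.9 FPKM in RA. Its groups overlapped, and the log2 fold change was -0.07 (SE 0.0713, adjusted p = 0.588 in edgeR), from -0.11 without CON 3 to -0.0048 without CON 1. Mmp23 (ENSRNOG00000017477), a membrane-anchored MMP without the hemopexin domain of most others, had 23.1, 29.2 and 31.2 FPKM in CON and 29.3, 33.5 and 30.5 FPKM in RA. CON 1 was its lowest sample, the groups overlapped, and the log2 fold change was 0.14 (SE 0.117, adjusted p = 0.497 in edgeR), from 0.023 without CON 1 to 0.24 without CON 3.

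Mmp11 (ENSRNOG00000054959), stromelysin 3, was near the limit of detection. It had 3, 5 and 2 reads in CON and 4, 6 and 7 reads in RA, or 0.0229 to 0.0985 FPKM over all samples. No sample reached the filter, so Mmp11 was not tested and no difference was detectable at this depth.

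**Figure D2:**
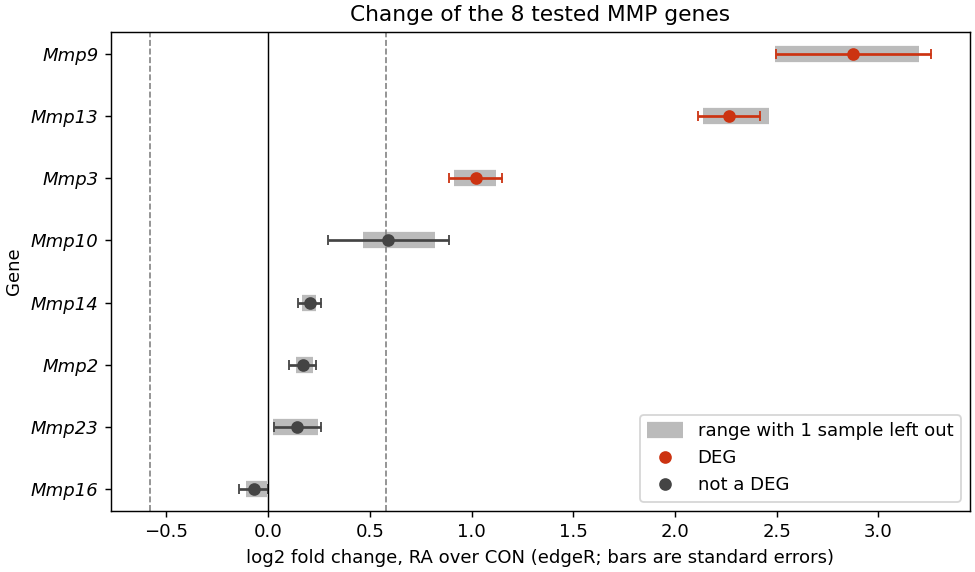
log2 fold change of RA over CON for the 8 tested MMP genes, with points for the edgeR estimate, bars for its standard error, grey bands for the range with 1 sample left out and dashed lines at the threshold of 0.58. Mmp9 (2.88), Mmp13 (2.26) and Mmp3 (1.02) are the DEGs, and the band of Mmp10 (0.59) spans the threshold.

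The CON samples differed more among themselves than the RA samples did in Mmp13 and Mmp9. The highest CON value was 1.57 times the lowest for Mmp13 and 3.18 times for Mmp9, against 1.17 and 1.47 times in RA. CON 1 was the highest CON sample for Mmp3, Mmp9, Mmp10, Mmp13 and Mmp16, and the lowest for Mmp2 and Mmp23. For Mmp13, Mmp9 and Mmp3 CON 1 was thus the CON sample nearest to the RA group.

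The order of the MMP genes by mean FPKM in CON was Mmp14, Mmp2, Mmp13, Mmp23, Mmp16, Mmp3, Mmp10, Mmp9 and Mmp11. Neighbours in this order had separate ranges, except Mmp23 with Mmp16 and Mmp9 with Mmp11. In RA, Mmp13 stood above Mmp2, and Mmp9 above Mmp10. The ranges of Mmp14 and Mmp13 overlapped in RA, although Mmp14 was above Mmp13 in each RA sample. The ratio of Mmp13 to Mmp2 was 0.617, 0.441 and 0.356 in CON and 2.15, 1.81 and 2.02 in RA, so it crossed 1 between the groups.

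The summed FPKM of the MMP genes was 452, 430 and 447 in CON and 698, 672 and 723 in RA. The groups did not overlap and the means were 443 ± 11.7 and 698 ± 25.9 FPKM (SD, n = 3 each), a ratio of 1.57. The two-sided exact permutation test gave p = 0.1, the smallest that 3 against 3 samples allow. Mmp13 accounted for 76.9% of the difference in the sum, Mmp14 for 14.5% and Mmp2 for 5.81%. Without Mmp13 the sums were 392 ± 12.7 FPKM in CON and 451 ± 10.5 FPKM in RA (SD, n = 3 each), a ratio of 1.15.

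The share of Mmp13 in this sum was 14.2, 11.1 and 9.14% in CON and 36.6, 33.2 and 36.0% in RA. Its means were 11.5 ± 2.57% and 35.3 ± 1.83% (SD, n = 3 each), a difference of 23.8 percentage points without overlap (exact permutation p = 0.1, the smallest possible). The share of Mmp14 was 51.4 ± 0.985% in CON and 38.0 ± 0.711% in RA, and that of Mmp2 24.6 ± 1.38% and 17.8 ± 0.654%. Both shares were lower in RA while neither FPKM was, since a share depends on the whole sum. Mmp3, Mmp9, Mmp10 and Mmp11 were minor parts throughout, and the share of Mmp3, the largest of these, was 0.82 ± 0.124% in CON and 1.06 ± 0.0506% in RA.

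**Figure D3:**
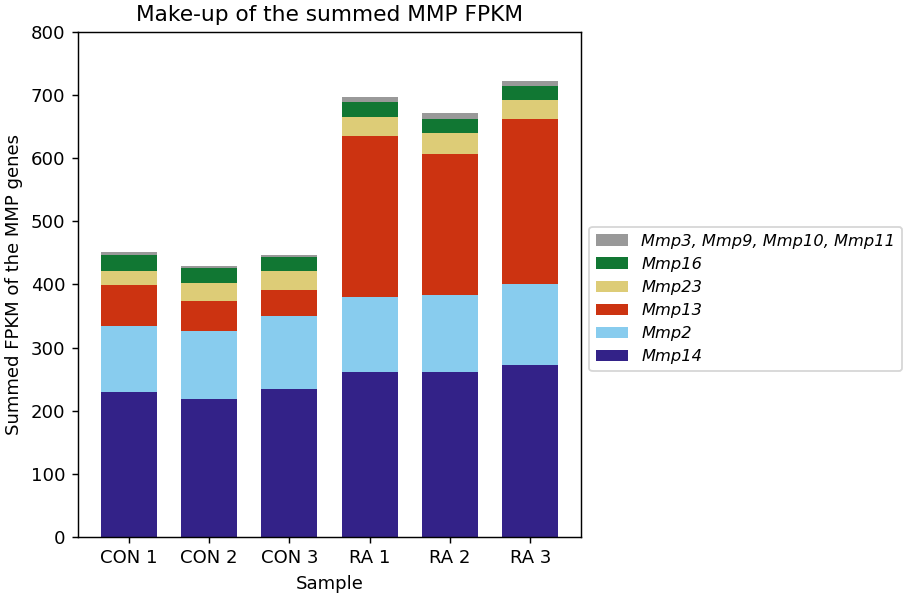
Summed FPKM of the MMP genes in each of the 6 samples, stacked by gene, with the 4 genes of lowest level drawn together. The bars reach 430 to 452 FPKM in CON and 672 to 723 FPKM in RA, and the Mmp13 segment is 9.14 to 14.2% of the bar in CON and 33.2 to 36.6% in RA.

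Other MMP genes were described from a list of 13, of which 9 had a row and 4 were tested. None of the 4 was a DEG in edgeR or DESeq2, 0 had an unadjusted p below 0.05, and the list median was a log2 fold change of 0.10. Mmp19, an MMP outside the main classes, was the abundant gene of this list, at 55.1 ± 1.33 FPKM in CON and 59.6 ± 2.22 FPKM in RA (log2 fold change 0.10, SE 0.0607, adjusted p = 0.356). Its CON mean was above that of Mmp13 (50.9 FPKM), so it would precede Mmp13 in the CON order given above. Mmp15, Mmp17 and Mmp24, which encode further membrane-type enzymes, did not pass either. Mmp12, the macrophage elastase in the same gene cluster as Mmp13, had 7, 3 and 4 reads in CON and 11, 6 and 11 reads in RA and was not tested.

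Among 7 inhibitors, 1 was a DEG, lower in RA, where 2.29% of all genes tested were lower DEGs. Timp3, the matrix-bound TIMP that also restrains aggrecan-cutting proteases, was at 367, 332 and 321 FPKM in CON and 176, 187 and 184 FPKM in RA. The groups did not overlap, and it fell by 0.91 on the log2 scale (SE 0.0645, adjusted p = 1.04e-04 in edgeR). Timp2, which also takes part in proMMP2 activation, was at 563 ± 16.3 FPKM in CON and 671 ± 20.3 FPKM in RA (log2 fold change 0.24, adjusted p = 0.0246), below the fold threshold. Reck, a membrane-anchored inhibitor, was likewise below it at 0.40 (adjusted p = 0.00320). Timp1 was at 326 ± 35.6 and 345 ± 5.97 FPKM (log2 fold change 0.07, adjusted p = 0.651). The summed FPKM of the 4 TIMP genes was 1229 ± 28.7 for CON and 1200.4 ± 20.0 for RA (SD over 3 samples each, exact permutation p = 0.3). The ratio of summed MMP FPKM to summed TIMP FPKM was 0.378, 0.343 and 0.361 in CON and 0.592, 0.558 and 0.594 in RA, without overlap (exact permutation p = 0.1, the smallest possible). The ratio of Mmp13 to Timp3 went from 0.149 ± 0.0245 to 1.35 ± 0.139 (SD, n = 3 each). This ratio pairs the MMP gene of the largest rise in FPKM with the only inhibitor DEG, so its shift was fixed by the choice of genes. These are ratios of transcripts, not of enzyme and inhibitor.

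A list of 11 genes tied to proMMP activation had 10 tested members, of which 2 were DEGs, both higher in RA (2.67% of all genes tested were higher DEGs), with a list median of 0.14. Plau, the urokinase that generates plasmin, was at 7.71, 9.23 and 8.99 FPKM in CON and 13.4, 13.1 and 14.9 FPKM in RA (log2 fold change 0.66, SE 0.0993, adjusted p = 0.00428 in edgeR). Htra1, a secreted serine protease, was at 298 ± 14.1 FPKM in CON and 481 ± 10.9 FPKM in RA (log2 fold change 0.68, SE 0.0590, adjusted p = 2.56e-04). Plasminogen (Plg), the precursor on which urokinase acts, did not exceed 0.0407 FPKM in any sample and was not tested. Furin, a proprotein convertase that activates proMMP14, was at 37.6 ± 7.26 and 41.1 ± 1.88 FPKM (adjusted p = 0.646). Proenzyme activation was not measured, and a place in this list does not show that a gene activates proMMPs in these cells.

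Of 7 uptake and collagen receptors, 1 was a DEG, higher in RA beside 2.67% of all genes tested, and the list median was 0.27. Itga2, the collagen-binding integrin α2 subunit, rose from a low level of 0.287 ± 0.0500 FPKM in CON to 0.989 ± 0.230 FPKM in RA (log2 fold change 1.78, SE 0.247, adjusted p = 0.00298 in edgeR). Lrp1, the endocytic receptor that clears MMP13 and TIMP3 from the matrix, was at 129 ± 22.7 and 178 ± 9.06 FPKM (log2 fold change 0.45, adjusted p = 0.0553). Mrc2, which encodes the collagen uptake receptor uPARAP, had a log2 fold change of 0.44 (adjusted p = 0.150) and passed without CON 3 (0.60, adjusted p = 0.0481), where the list held 2 DEGs.

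Of 14 transcription factors known to act on MMP promoters, 1 was a DEG, higher in RA, and the list median was 0.16. With 4.96% DEGs over all genes tested, 1 of 14 is near the background and is no result about the list. Fosl1, which encodes the AP-1 subunit FRA1, was at 4.78, 5.20 and 5.27 FPKM in CON and 15.4, 12.6 and 13.2 FPKM in RA. The groups were far apart, with a log2 fold change of 1.41 (SE 0.106, adjusted p = 1.27e-04 in edgeR). Jun, the partner subunit of FOS proteins, was at 17.3 ± 1.99 FPKM in CON and 25.3 ± 0.177 FPKM in RA, and its log2 fold change of 0.53 (adjusted p = 0.00674) was just under the threshold. Without CON 2 it passed at 0.59 (adjusted p = 0.0187), where the list held 2 DEGs. The other AP-1 genes, Fos, Fosb, Fosl2, Junb and Jund, were not DEGs. Runx2, a regulator of hypertrophic chondrocytes, was at 3.92 ± 0.173 and 4.59 ± 0.341 FPKM (adjusted p = 0.158). Whether the AP-1 genes had a part in the MMP changes was not tested.

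The 13 matrix substrates held 8 DEGs, 2 higher and 6 lower in RA, with a list median of -0.41, against 2.67% higher and 2.29% lower DEGs over all genes tested. Of the 6 lower genes, 5 (Col2a1, Col9a1, Acan, Comp and Matn3) are also chondrocyte markers counted above, so the counts of both lists rest largely on the same genes. Col10a1, the collagen of hypertrophic cartilage, was at 0.287, 0.178 and 0.129 FPKM in CON and 0.742, 1.22 and 0.712 FPKM in RA (log2 fold change 2.16, adjusted p = 0.00807 in edgeR). Spp1, which encodes osteopontin, went from 861 ± 51.2 to 3208 ± 130 FPKM (log2 fold change 1.88, SE 0.0560). Among the genes that fell, Acan, the core protein of aggrecan, dropped by 1.51 on the log2 scale, and Matn3, a cartilage matrix adaptor, dropped by 1.65. Col2a1, the main substrate of MMP13 in cartilage, dropped by 0.78, from 5420 ± 960.5 to 3185 ± 141 FPKM. Col9a1, which coats type II collagen fibrils, dropped by 0.86. Col11a1 (-0.60) was no longer past the fold threshold without CON 1, where 7 DEGs were left in the list, and Comp (-0.64) was lost without CON 3 and without RA 1.

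**Figure D4:**
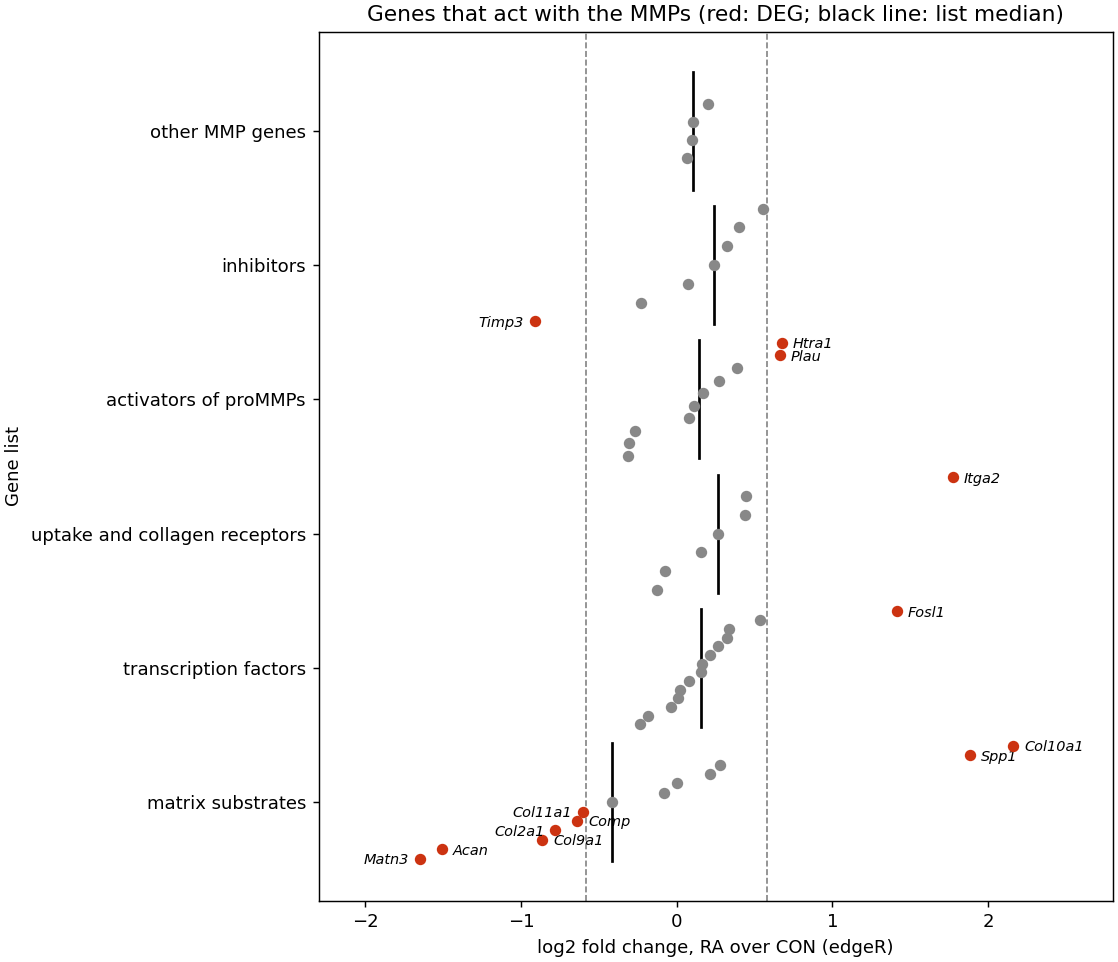
log2 fold change of RA over CON (edgeR) for the tested genes of the 6 lists of related genes, with 1 point per gene, a black line at each list median, red points for DEGs and dashed lines at the threshold of 0.58. Timp3 is the only DEG among the inhibitors, and the matrix substrates hold DEGs in both directions, from Matn3 at -1.65 to Col10a1 at 2.16.

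Markers of other cell types were set beside the rise of Mmp13, which osteoblasts also express. Of 5 osteoblast markers 3 were tested and 1 was a DEG, Ibsp (bone sialoprotein), with a log2 fold change of 1.47, where 2.67% of all genes tested were higher DEGs. The summed FPKM of the 5 osteoblast markers was 1.38 to 2.19 in CON and 2.74 to 3.56 in RA, and most of this difference was Ibsp, at 0.550 FPKM on average in CON and 1.54 FPKM in RA. Sp7 and Phex did not pass (adjusted p = 0.640 and 0.473 in edgeR), and Bglap and Dmp1 were not tested with all samples. Dmp1 had 4, 2 and 2 reads in CON and 14, 5 and 27 reads in RA, without overlap. It became testable and a DEG without CON 1 (adjusted p = 0.0347) and without RA 2 (0.0331), where the list held 2 DEGs. In these fits Dmp1 passed the filter through its RA reads alone, since no CON sample exceeded 4 reads. The added call thus depends on the filter and is no result about the list. The part of osteoblast-like expression in the Mmp13 result was not tested. None of the 5 fibroblast and perichondrium markers was a DEG in edgeR or DESeq2 (3707 to 4901 FPKM summed in CON, 4800 to 5056 FPKM in RA), with 2 at an unadjusted p below 0.05. Of these, Pdgfra, a growth factor receptor of mesenchymal cells, also had an adjusted p of 0.00155 in edgeR, with a log2 fold change of 0.44 under the fold threshold and all RA samples above all CON samples. The other, Dpt (dermatopontin), lay in the opposite direction, with a log2 fold change of -0.73 and an adjusted p of 0.204 in edgeR, and its groups overlapped. Col3a1 was at 1009 ± 101 FPKM in CON and 1018 ± 7.17 FPKM in RA. The part of these markers in the MMP results was not tested. The chondrocyte markers summed to 6587 to 8614 FPKM in CON and 4121 to 4445 FPKM in RA, and the part of this difference in the MMP results was not tested.

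The tested genes whose values over the 6 samples were most like those of Mmp13, by Euclidean distance between centred log2 CPM, were Esm1 (distance 0.383), Itgax (0.404), Tmem176a (0.511), Rerg (0.542) and Il1rl1 (0.558). Their log2 fold changes were 2.25, 2.05, 1.91, 1.87 and 2.70. Il1rl1, which encodes the receptor of interleukin 33, was the most abundant of these, with 25.8 to 34.3 FPKM in CON and 171 to 207 FPKM in RA. The groups separate all 5 genes and Mmp13 alike, and the distance combines likeness in the size of the group difference with likeness of the values within groups. How much each contributed was not tested.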

How the data were processed

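Poly(A) RNA of 3 CON and 3 RA samples was sequenced. The authors deposited whole-number counts of reads per gene and, beside them, FPKM values, which equal the count divided by gene length and by the summed counts of the sample. The submitters' processing notes name HISAT2, HTSeq 0.13.5 and build Rnor_6.0, while strand use and the annotation release are not given in the sources used here. Groups and numbers came from the sample labels. Counts of 13438 genes passing filterByExpr (minimum count 10) were tested with edgeR 4.0.16 (TMM, quasi-likelihood F-test, no covariates, all 6 samples) in R 4.3.3, with Benjamini-Hochberg adjustment over all of them. A DEG had an adjusted p under 0.05 together with a log2 fold change beyond 0.58 either way. All adjusted p-values are from this test unless DESeq2 1.42.0 or limma 3.58.1 is named. Standard errors (SE) were derived from it, as the absolute log2 fold change divided by the square root of the F statistic. Sums, shares and ratios of FPKM were compared by exact two-sided permutation over samples (scipy 1.17.1). Levels between genes are compared in FPKM only. The test was checked on simulated data. The MMP genes, gene lists and tests were chosen with earlier results of these data known. Every MMP gene, every DEG of a list and up to 4 further genes of a list were eligible to be named, with the 5 genes nearest to Mmp13. Mmp12, Plg, Fos, Fosb, Fosl2, Junb, Jund, Runx2, Mmp15, Mmp17, Mmp24, Furin and Mrc2 were named beyond this for their role, and Mmp7 and Mmp20 for their promoter motifs. The cell type markers Ptprc, Ctsk, Cd14, Cd68, Ibsp, Sp7, Phex, Bglap, Dmp1, Pdgfra and Dpt were named with their values in view. Promoter sequences and gene order are from RefSeq (GRCr8), whose build differs from that of the files. Alternatives were another tool, normalization, filter, scale or threshold, a replicate block and each sample left out.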

Additional observations from a re-analysis of the deposited data

How the results depend on the processing

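The count of 3 DEGs among the MMP genes was obtained in all 16 alternatives, and in the alternatives run, the log2 fold changes of the 8 tested genes, the summed FPKM and the Mmp13 share kept their direction and the 8 genes their DEG call. The shares of the other genes were not recomputed. By adjusted p alone, Mmp14 passed in DESeq2, with total counts only, in both limma fits, with the replicate block (0.0442), without CON 1 and without CON 3. In the fits that omit 1 sample, the ratio of summed FPKM ran from 1.54 to 1.60 and the difference in the Mmp13 share from 22.7 to 25.2 percentage points. Adding all genes with an MMP symbol gave 1.52 and 22.2. Mmp10 was removed by the stricter filter (1 CPM in 3 samples), which therefore gave no value for it. Same-numbered CON and RA samples were hardly alike (correlation of deviations from the group means 0.0928, -0.0123 and 0.0118), and CON 2 and CON 3 correlated more with an RA sample of another number. With the block the count was again 3, with log2 fold changes of 2.28 for Mmp13, 2.88 for Mmp9 and 1.03 for Mmp3. The counts of DEGs in the lists with 1 sample left out were added after the data were seen. They ran from 1 to 2 for the receptors, the transcription factors and the osteoblast markers, from 7 to 8 for the matrix substrates, and stayed at 0, 1 and 2 for the other MMP genes, the inhibitors and the activators. The higher count of the osteoblast markers came from Dmp1, which became testable through its RA reads alone. Depth limits Mmp9, Mmp10 and Mmp11, at 2 to 121 reads per sample.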
